A study of Mus musculus with 12 samples.

Results

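The genes that write, erase and protect DNA methylation were followed through 12 single mouse morulae. The set was fixed by name as Dnmt1, Dnmt3a, Dnmt3b, Dnmt3l, Tet1, Tet2, Tet3, Uhrf1, Dppa3 and Zfp57, and every array probe whose accession or deposited gene name matches one of these 10 genes was taken. Probes were found for 9 of the 10 genes, 15 of the 41174 probes on the array, and 14 of them passed the filter on dim signals, so 9 of the 19038 genes and unnamed transcripts tested belong to the set. Tet1 was matched by no probe and is not analysed here. All embryos were (C57BL/6 x DBA/2) F1 whole embryos cultured in KSOM for 72 h, and each array carried twice-amplified RNA of 1 embryo. The siXist clones (4, all male) were made with nuclei of Sertoli cells, the supporting cells of the testis, and received an siRNA against Xist 6 to 7 h after activation. The siCont clones (4, all male) were made and injected in the same way with a control siRNA. The IVF embryos (replicates 1 and 3 male, 2 and 4 female) came from in vitro fertilisation and were neither cloned nor injected. A difference of clones from IVF embryos therefore joins cloning, injection and an unequal sex ratio.

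DNA methylation in mammals lies mostly on the cytosine of CG pairs. Dnmt1 copies it onto the new strand after replication, guided by Uhrf1, which binds half-methylated CG. Dnmt3a and Dnmt3b place new marks, and Dnmt3l, which has no catalytic activity of its own, binds and stimulates them. The Tet enzymes oxidise the methyl group, a first step in its removal. Dppa3 (also called Stella), stored in the oocyte, shields the maternal genome from Tet3 after fertilisation, and Zfp57 binds a methylated motif at imprinted regions and keeps their marks while the rest of the genome loses methylation before the blastocyst. The study asked whether knockdown of Xist helps cloned embryos, whose donor genome comes from a somatic cell and starts with somatic methylation.

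Dnmt3a, Dnmt3l and Zfp57 had an unadjusted p under 0.05 in limma in some comparison, and none of them passed after adjustment. Their promoters are shown as background on how CG-rich they are, since the arrays measure RNA and not methylation. Each is the 250 bases before a transcript start in RefSeq (GRCm38.p6, plus strand), and capitals mark every CG. Over 32851 promoters of that length the median was 6 CG. The outermost start of Dnmt3a (chr12:3806730-3806979) has 38 CG, a number reached by 1.88% of promoters. An internal start of Dnmt3a (chr12:3891494-3891743) has 15, reached by 27.3%. The first listed start of Dnmt3l (chr10:78042037-78042286) has 5, reached by 55.6%, and the first start of Zfp57 along the chromosome (chr17:37000913-37001162) has 6, reached by 50.4%.
Dnmt3a, outermost start: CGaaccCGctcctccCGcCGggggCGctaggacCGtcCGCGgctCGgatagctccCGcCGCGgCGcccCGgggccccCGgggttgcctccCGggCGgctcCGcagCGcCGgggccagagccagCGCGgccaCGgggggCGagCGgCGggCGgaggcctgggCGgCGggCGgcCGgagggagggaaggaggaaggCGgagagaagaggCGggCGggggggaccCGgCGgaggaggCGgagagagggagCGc
Dnmt3a, internal start: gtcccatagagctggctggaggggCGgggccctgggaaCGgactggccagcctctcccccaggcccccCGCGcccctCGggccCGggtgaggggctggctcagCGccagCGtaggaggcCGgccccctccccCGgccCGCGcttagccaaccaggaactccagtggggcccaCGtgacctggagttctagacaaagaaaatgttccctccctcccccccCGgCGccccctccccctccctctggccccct
Dnmt3l: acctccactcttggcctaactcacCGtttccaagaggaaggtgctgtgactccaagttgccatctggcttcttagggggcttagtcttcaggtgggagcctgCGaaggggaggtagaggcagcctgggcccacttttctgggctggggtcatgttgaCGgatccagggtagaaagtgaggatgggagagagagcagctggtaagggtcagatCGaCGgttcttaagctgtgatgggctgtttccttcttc
Zfp57: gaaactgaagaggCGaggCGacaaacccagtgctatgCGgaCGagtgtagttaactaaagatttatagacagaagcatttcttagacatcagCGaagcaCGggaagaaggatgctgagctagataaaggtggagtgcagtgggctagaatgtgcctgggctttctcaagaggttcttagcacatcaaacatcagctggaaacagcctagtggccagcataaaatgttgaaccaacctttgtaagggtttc

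Between 50.7% and 61.4% of probes were well above background on an array, with array signals whose 75th percentile was 507 to 1133. Levels are log2 processed signal minus that percentile, so 0 is the 75th percentile of the array, and a difference of 1 is a doubling. Xist, the siRNA's target, was at 1.72, 1.36, 2.18 and 2.45 in siXist clones 1 to 4, against 5.65, 4.74, 4.94 and 4.56 in siCont clones (difference -3.04 ± 0.48, limma adjusted p = 0.110). It was at 5.17 and 5.24 in the female IVF embryos and at -4.92 and -7.04 in the male ones, and these levels go with the labels. The 3 classes were hybridised on 3 separate slides, scanned separately, so slide and class cannot be told apart. Female and male IVF embryos shared 1 slide. Of 11 morula markers with a probe, 10 to 11 were above background in siXist clones, 9 to 11 in siCont clones and 11 in every IVF embryo. The oocyte list had a log2 summed level of 3.99 to 4.73 in siXist clones, 5.03 to 5.52 in siCont clones and 4.20 to 4.62 in IVF embryos. The Sertoli list had 7 to 10 of 12 markers above background in siXist clones, 7 to 8 in siCont clones and 7 to 8 in IVF embryos, at log2 summed levels of 1.93 to 4.01, 1.66 to 3.76 and 2.20 to 2.43, with Amh and Inha at background on all 12 arrays. The part of these lists in the results was not tested. In whole embryos, fewer cells and less RNA per cell cannot be told apart.

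None of the 9 genes passed an adjusted p of 0.05 in limma in any of 5 comparisons. Between siXist and siCont clones 0 of 9 were called, where 0.0105% of all features were. Of siXist clones against IVF embryos 0 of 9 were called, against 0.578% of all features. Of siCont clones against IVF embryos 0 of 9 were called, against 0.415% of all features, and of all 8 clones against IVF embryos 0 of 9, against 0.909%. Of female against male IVF embryos 0 of 9 were called, against 0.0158%. At an unadjusted p under 0.05, 1 of 9 differed between siXist and siCont clones (13.9% of all features), 2 between siXist clones and IVF embryos (13.9%), 1 between siCont clones and IVF embryos (13.6%), 2 between all clones and IVF embryos (13.4%) and 0 between the sexes (1.53%). The ranges were separate for 2 of 9 genes between siXist and siCont clones, against 8.03% of all features, for 2 between siXist clones and IVF embryos (13.1%), for 1 between siCont clones and IVF embryos (10.3%) and for 1 between all clones and IVF embryos (3.35%). The counts against IVF embryos include Zfp57, which passed the filter on dim signals only through the IVF embryos. At an unadjusted p, those of siXist clones and of all clones also include Dnmt3a, on its probe with the highest mean alone. Separate ranges between siXist clones and IVF embryos also include Dnmt3b, which had 2 siXist and 3 IVF values. Those between siXist and siCont clones include Dnmt3a, by a gap of 0.07 on its probe with the highest mean. In a set of 9 genes 1 gene is a large share, and nothing particular to the set is read from these counts. The comparisons with IVF embryos share the same 4 embryos, and those with siCont clones share theirs.

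**Figure D1:**
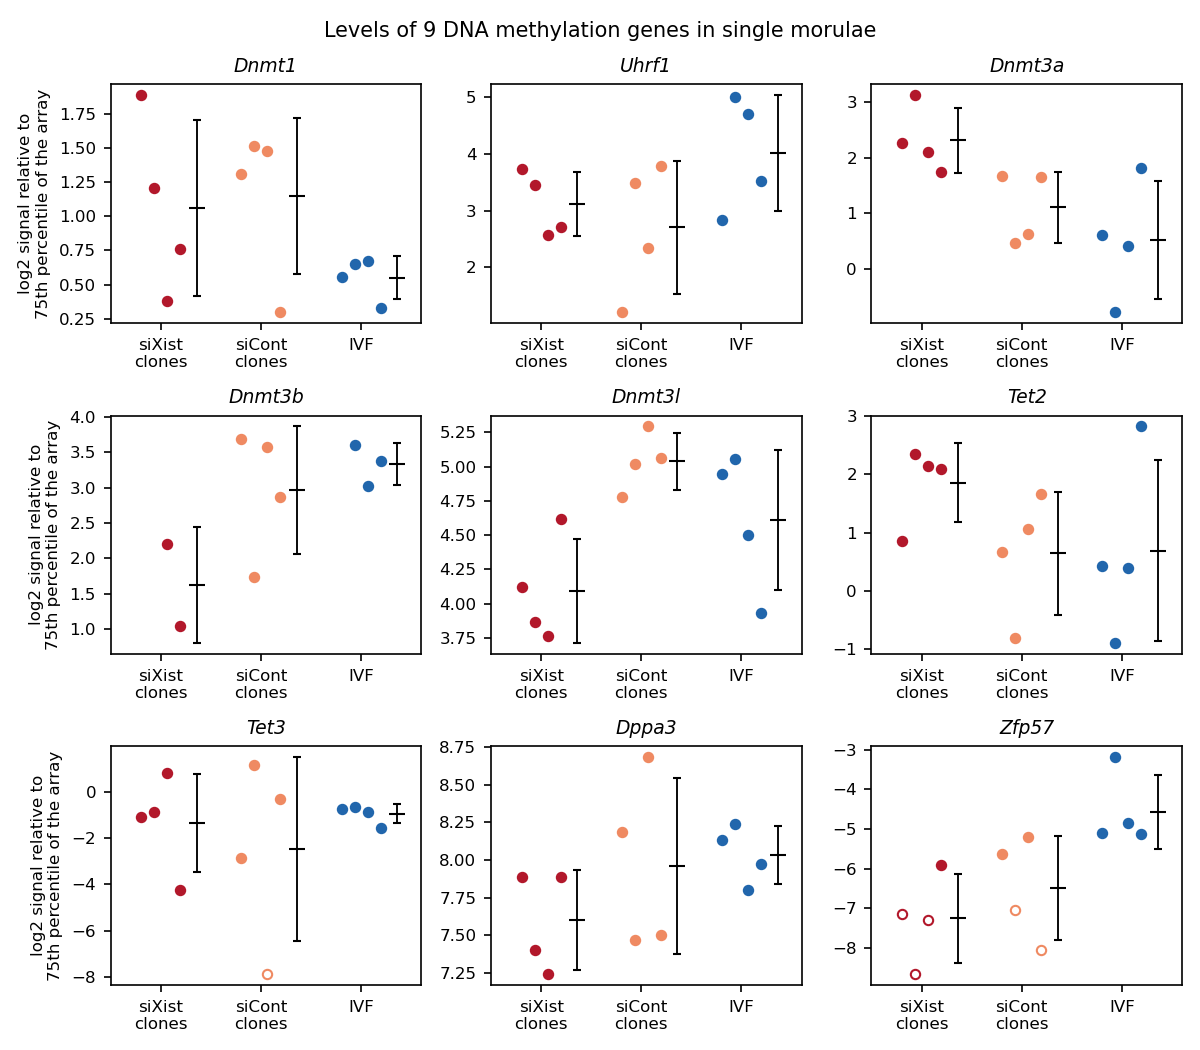
Level of each gene in each embryo (log2 processed signal relative to the 75th percentile of the array) for siXist clones, siCont clones and IVF embryos, left to right, with replicates 1 to 4 in order within a class. Points are embryos, open where the probe was not well above background, and bars give the mean and SD. Dnmt3l lies at 3.76 to 4.62 in siXist clones, below the 4.78 to 5.29 of siCont clones, and Zfp57 lies at -5.12 to -3.20 in IVF embryos, above all clones.

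Dnmt1 and Uhrf1, which maintain methylation through replication, were well above background in all 12 embryos. Dnmt1 was at 1.89, 1.21, 0.38 and 0.76 in siXist clones, at 1.31, 1.51, 1.48 and 0.30 in siCont clones and at 0.55, 0.65, 0.67 and 0.33 in IVF embryos. The IVF embryos were close together (SD 0.16, smaller than in all but 6.93% of features), while the clones ranged from the IVF level to above it. All 3 class ranges overlapped. The class means were 1.06 ± 0.65, 1.15 ± 0.57 and 0.55 ± 0.16 (SD, n = 4 each), and the differences of siXist clones (0.51 ± 0.41, adjusted p = 0.589) and of siCont clones (0.60 ± 0.41, adjusted p = 0.551) from IVF embryos in limma were about as large as the spread between clones. The siXist and siCont clones differed by -0.09, with a 95% interval of -0.997 to 0.82.

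Uhrf1 was at 3.72, 3.45, 2.57 and 2.71 in siXist clones, at 1.22, 3.48, 2.34 and 3.77 in siCont clones and at 2.83, 4.996, 4.69 and 3.51 in IVF embryos. IVF embryos 2 and 3, a female and a male, were higher than every clone, and siCont clone 1 was the lowest embryo. The ranges of the classes overlapped. Mean levels were 3.11 ± 0.56 in siXist clones, 2.70 ± 1.17 in siCont clones and 4.01 ± 1.01 in IVF embryos (SD, n = 4 each). The clones as a whole were 2.14-fold lower than IVF embryos without passing (fitted log2 difference -1.1 ± 0.58, 95% interval -2.39 to 0.19, limma adjusted p = 0.441), with -1.30 ± 0.67 for siCont clones (adjusted p = 0.423) and -0.89 ± 0.67 for siXist clones (adjusted p = 0.562). The interval reaches from a 5.23-fold lower to a 1.14-fold higher level in clones, and the difference ran from -1.57 without IVF embryo 1 to -0.63 without IVF embryo 3. A second Uhrf1 probe followed the first almost exactly, with an offset of 1.02 ± 0.08 (SD over 12 arrays) and a Pearson correlation of 0.997 across the 12 embryos, so the spread between embryos for Uhrf1 is far larger than the spread between its probes.

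Among the de novo enzymes and their cofactor, 1 of 3 Dnmt3a probes and the Dnmt3l probe had separate ranges in siXist and siCont clones, as 8.03% of all features had, and neither passed the threshold. Dnmt3a was higher on that probe in siXist clones and Dnmt3l lower. On the probe with the highest mean, Dnmt3a was at 2.28, 3.13, 2.10 and 1.75 in siXist clones, at 1.68, 0.47, 0.63 and 1.65 in siCont clones and at 0.61, -0.78, 0.41 and 1.82 in IVF embryos. Every siXist clone was above every siCont clone, by a gap of 0.07 at its narrowest, and IVF embryo 4 lay among the siXist clones. The means were 2.31 ± 0.58, 1.11 ± 0.65 and 0.52 ± 1.06 (SD, n = 4 each). The difference was 1.20 ± 0.58 between siXist and siCont clones (95% interval -0.08 to 2.49, limma adjusted p = 0.384) and 1.80 ± 0.58 between siXist clones and IVF embryos (0.51 to 3.09, adjusted p = 0.222), a 3.48-fold higher level. It was 0.59 ± 0.58 between siCont clones and IVF embryos (adjusted p = 0.689).

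The other Dnmt3a probes did not share that pattern. Probe A_52_P169048 was at 0.72, 0.26, -1.11 and -1.87 in siXist clones, at 0.67, -0.54, 1.18 and 0.62 in siCont clones and at -0.06, -0.65, 0.74 and -0.94 in IVF embryos. Its siXist minus siCont difference was -0.98 ± 0.61 (limma adjusted p = 0.490 with each probe tested on its own), opposite in sign to the first probe. Probe A_52_P30497 ranged from -2.53 to 0.44 in siXist clones, from -2.06 to 1.35 in siCont clones and from -3.47 to 0.52 in IVF embryos, with a siXist minus siCont difference of -0.65 ± 1.07. Across the 12 embryos the first probe had correlations of -0.02 and -0.22 with these 2, which correlated at 0.61 with each other. With the mean of the 3 probes the siXist minus siCont difference was -0.14, and the siXist minus IVF difference 0.62. A level of Dnmt3a as a whole gene is therefore not given by these probes. The files used here do not say which of its transcripts each probe reports, so the CG-rich outermost and the internal start printed above cannot be assigned to them.

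**Figure D2:**
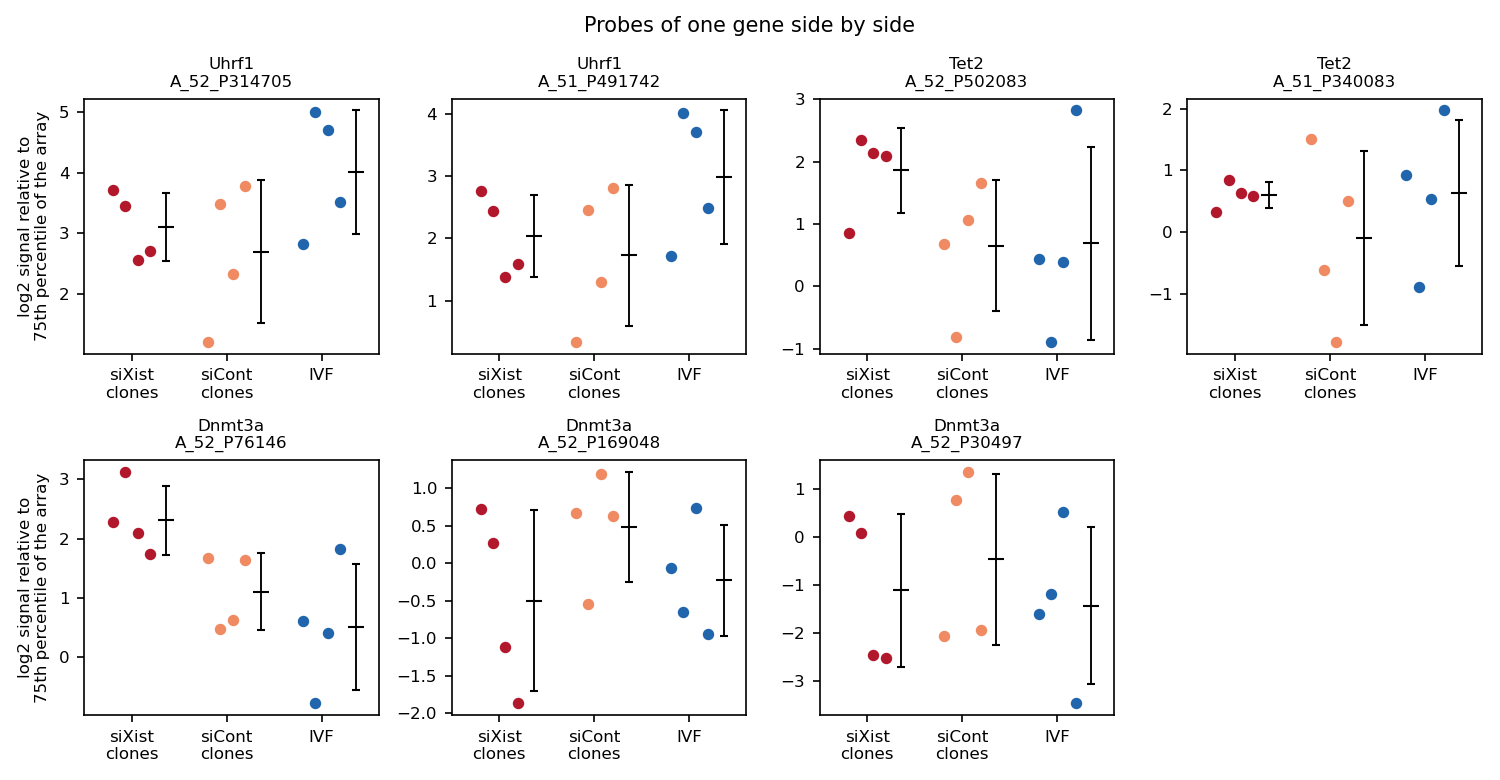
Kept probes of Uhrf1, Tet2 and Dnmt3a side by side, as log2 processed signal relative to the 75th percentile of the array, in siXist clones, siCont clones and IVF embryos, left to right. Points are embryos and bars the mean and SD. The Uhrf1 probes have the same shape (correlation 0.997), while Dnmt3a probe A_52_P76146 is highest in siXist clones and the other 2 Dnmt3a probes are not.

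Dnmt3l, the cofactor, was well above background in every embryo, at 4.12, 3.87, 3.76 and 4.62 in siXist clones, at 4.78, 5.02, 5.29 and 5.06 in siCont clones and at 4.95, 5.06, 4.50 and 3.93 in IVF embryos. Every siXist clone was below every siCont clone, and the IVF embryos spanned both. Its SD among siCont clones, 0.21, was smaller than for all but 2.70% of features. The mean was 4.09 ± 0.38 in siXist clones, 5.04 ± 0.21 in siCont clones and 4.61 ± 0.51 in IVF embryos (SD, n = 4 each). The siXist minus siCont difference of -0.95 ± 0.34 (95% interval -1.70 to -0.19, a 1.93-fold lower level) had an unadjusted p of 0.0196 and a limma adjusted p of 0.312. It kept its sign with any 1 of the 12 arrays left out (-1.12 to -0.84), and turned to 0.19 in the authors' deposited table, where the median of all features is 0.93 in this comparison. The siXist and siCont clones lay on either side of the IVF mean, at -0.52 ± 0.34 (adjusted p = 0.522) and 0.43 ± 0.34 (adjusted p = 0.614). The oocyte list was higher in siCont clones than in siXist clones as well, at the levels given above, and its part in the Dnmt3l difference was not tested.

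Dnmt3b, the other de novo enzyme, was at 2.20 and 1.04 in siXist clones 3 and 4, at 3.69, 1.73, 3.58 and 2.87 in siCont clones and at 3.60, 3.02 and 3.38 in IVF embryos 2 to 4. The spot was marked as an outlier by the scanner software on siXist clones 1 and 2 and on IVF embryo 1, and these 3 values were left out of the fit. Both remaining siXist clones were below all 3 IVF embryos, where 13.1% of all features had separate ranges. The fitted difference was -1.63 ± 0.72 between siXist clones and IVF embryos (limma adjusted p = 0.375, n = 2 and 3), -1.35 ± 0.67 between siXist and siCont clones (adjusted p = 0.408) and -0.29 ± 0.61 between siCont clones and IVF embryos (adjusted p = 0.867). With the marked spots kept, at 2.66 and 2.96 in siXist clones 1 and 2 and 3.70 in IVF embryo 1, these were -1.21, -0.75 and -0.46.

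**Figure D3:**
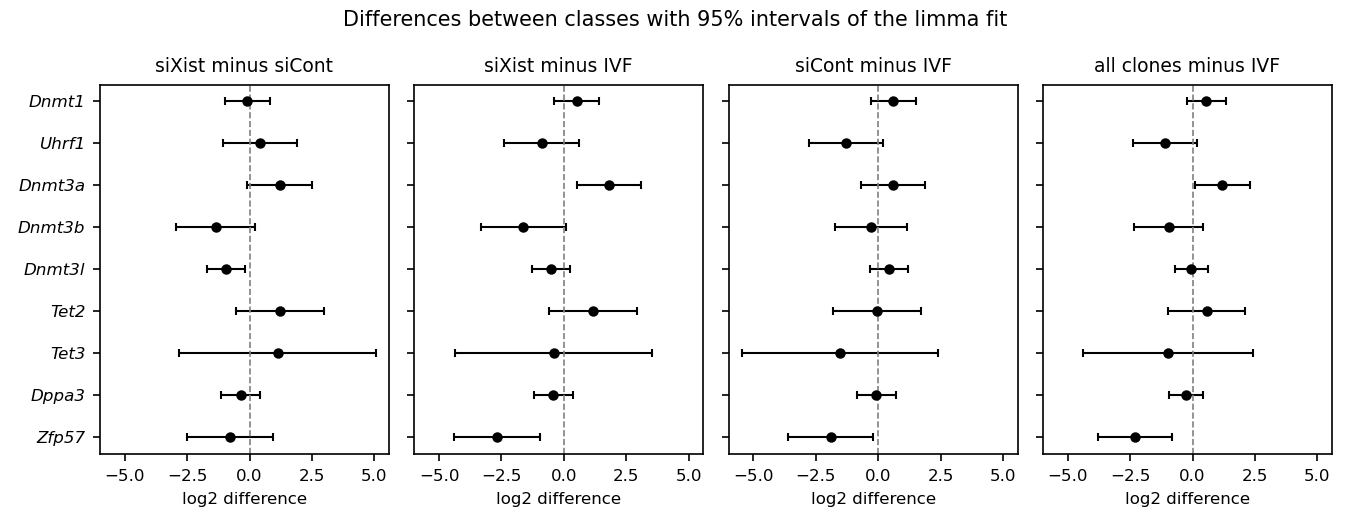
Fitted log2 differences of the 9 genes for siXist minus siCont, siXist minus IVF, siCont minus IVF and all clones minus IVF, with points for the estimate and bars for the 95% interval of the limma fit. Each gene is shown on its kept probe with the highest mean. The interval leaves out 0 for Dnmt3l in the first panel (-1.70 to -0.19), for Dnmt3a and Zfp57 in the second and the last, and for Zfp57 in the third, and none of these passed after adjustment over 19038 features. The other Dnmt3a probes, not shown, gave -0.27 and 0.32 for siXist minus IVF and 0.22 and 0.64 for all clones minus IVF.

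Of the Tet enzymes, Tet2 was measured by a pair of kept probes and Tet3 by a pair of kept probes and 1 that was above background on 0 of 12 arrays. On its brighter probe Tet2 was at 0.85, 2.35, 2.14 and 2.09 in siXist clones, at 0.67, -0.81, 1.06 and 1.66 in siCont clones and at 0.43, -0.89, 0.39 and 2.82 in IVF embryos. The highest and the lowest embryo were both female IVF embryos, and the classes overlapped. The siXist minus siCont difference was 1.21 ± 0.79 (95% interval -0.56 to 2.98, limma adjusted p = 0.496), and the siCont minus IVF difference was -0.04 ± 0.79 (-1.81 to 1.73, adjusted p = 0.988). On the second Tet2 probe the siXist clones lay between 0.33 and 0.85, with an SD of 0.21, against -1.78 to 1.51 in siCont clones and -0.90 to 1.97 in IVF embryos. The 2 probes had a correlation of 0.55 across the 12 embryos, and the siXist minus siCont difference on the second was 0.69 ± 0.76.

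Tet3 is the maternal enzyme that acts in the zygote. On its brighter kept probe it was at -1.10, -0.85, 0.82 and -4.26 in siXist clones, at -2.87, 1.17, -7.89 and -0.31 in siCont clones and at -0.73, -0.63, -0.85 and -1.55 in IVF embryos. IVF embryos were within 0.92 of each other, whereas siCont clones spanned 9.06 as measured, with clone 3 not above background and so known only as a bound. The SD among IVF embryos, 0.42, was larger than for 39.8% of features. The measured difference was 1.13 ± 1.77 between siXist and siCont clones (interval -2.81 to 5.06, limma adjusted p = 0.781), and these classes overlapped. With siCont clone 3 at its array's lowest signal well above background, the siXist mean was 1.47-fold above the siCont mean. That value concerns the class means alone, and the interval leaves the direction of the difference open. Between siXist clones and IVF embryos the measured difference was -0.41 ± 1.77 (adjusted p = 0.935). The second kept probe lay between -5.44 and -3.39 on all arrays, whose lowest signals well above background were -6.76 to -5.60. It correlated at -0.58 with the first, and the spread of the first is not seen on it. Its differences were opposite in sign to the first probe, at -0.51 ± 0.46 between siXist and siCont clones and 0.06 ± 0.46 between siXist clones and IVF embryos. A level of Tet3 as a whole gene is therefore not given by these probes.

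Dppa3, which guards methylation of the maternal genome, was at 7.89, 7.40, 7.24 and 7.88 in siXist clones, at 8.18, 7.47, 8.68 and 7.50 in siCont clones and at 8.14, 8.24, 7.80 and 7.97 in IVF embryos. All 12 embryos lay within 1.44 of each other and the classes overlapped. The means were 7.60 ± 0.33, 7.96 ± 0.58 and 8.03 ± 0.19 (SD, n = 4 each). The interval of the difference ran from -1.14 to 0.43 between siXist and siCont clones, from -1.21 to 0.35 between siXist clones and IVF embryos and from -0.86 to 0.71 between siCont clones and IVF embryos (limma adjusted p = 0.646, 0.597 and 0.943), so changes beyond 2.32-fold either way lie outside all 3 intervals.

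Zfp57, the keeper of imprints, was near background in most clones and was the only member whose 8 clones all lay below the 4 IVF embryos. It was at -7.14, -8.66, -7.31 and -5.92 in siXist clones, at -5.62, -7.04, -5.20 and -8.05 in siCont clones and at -5.10, -3.20, -4.86 and -5.12 in IVF embryos. The probe was well above background in siXist clone 4, in siCont clones 1 and 3 and in all 4 IVF embryos. The highest clone and the lowest IVF embryo were 0.09 apart, and IVF embryo 2 stood above the other IVF embryos. It passed the filter on dim signals only through the IVF embryos, where it is high, so its separate ranges are a description and no support for a difference. The measured means were -6.87 ± 1.20 in clones (SD, n = 8) and -4.57 ± 0.92 in IVF embryos (SD, n = 4), with a limma adjusted p of 0.168. On the measured levels the limma adjusted p was 0.174 for siXist clones and 0.317 for siCont clones against IVF embryos. The dim clones have only a bound, which depends on the floor. With each dim array set to its own lowest signal well above background, the mean of Zfp57 was at least 2.84-fold lower in all clones than in IVF embryos. It was at least 3.52-fold lower in siXist clones and at least 2.29-fold lower in siCont clones. With the highest such signal of any array as a common floor, the log2 differences were smaller, at -1.02, -1.11 and -0.93. Separate ranges with the clones lower were found for 2.33% of all features. The siXist and siCont clones differed by -0.78 ± 0.77 (adjusted p = 0.646), with most of these arrays not above background. The measured difference of all clones from IVF embryos, -2.30, became -0.48 after normexp background correction with quantile normalisation. Its lowest adjusted p under any alternative was 0.0577.

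Female and male IVF embryos gave the differences of the 9 genes between the sexes within 1 slide, with 2 embryos each. They ran from -0.30 (Tet3) to 0.82 (Zfp57) and were higher in females for 6 of 9 genes, as for 52.5% of all features. The lowest unadjusted p in limma was 0.466, and the adjusted p was 0.9998 for each. Zfp57 was at -3.20 and -5.12 in females and at -5.10 and -4.86 in males, and Uhrf1 at 4.996 and 3.51 in females and at 2.83 and 4.69 in males. Both pairs overlapped. Only Dnmt3b did not overlap, with a single male value, where 28.6% of all features did not.

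Across the set the median difference was -0.09 between siXist and siCont clones, beside -0.21 over all features. It was -0.43 between siXist clones and IVF embryos (all features -0.23), -0.08 between siCont clones and IVF embryos (-0.04) and -0.25 between all clones and IVF embryos (-0.12). Of the 9 genes, 4 were higher in siXist than in siCont clones (39.8% of all features). Against IVF embryos 3 were higher in siXist clones (38.3% of all features), in siCont clones (48.1%) and in all clones (42.6%). Over the 8 genes with a value in every embryo, no embryo was high or low throughout. IVF embryo 2 had the highest level of 2 genes (Uhrf1 and Zfp57) and the lowest of 2 others, siCont clone 3 the highest of 2 and the lowest of 1, and siXist clone 3 the lowest of 2.

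The partners and readers of DNA methylation were followed as a wider list of 53 genes, covering chromatin partners, methyl-CG binding proteins, base excision repair and the supply of methyl groups. Probes were found for 51, and 48 passed the filter. Between siXist and siCont clones 22 were higher and 26 lower (median -0.19, all features -0.21). Between siXist clones and IVF embryos 15 were higher and 33 lower (median -0.33, all features -0.23), and between siCont clones and IVF embryos 18 were higher and 30 lower (median -0.27, all features -0.04). Over all features 39.8%, 38.3% and 48.1% were higher in these comparisons, in that order. By limma 0 of 48 were called in any comparison. At an unadjusted p under 0.05 there were 4 of 48 between siXist and siCont clones (13.9% of all features), 7 between siXist clones and IVF embryos (13.9%), 6 between siCont clones and IVF embryos (13.6%) and 9 between all clones and IVF embryos (13.4%). The 9 include Apobec1, which passed the filter on dim signals only through the clones, where it is high. The list was chosen with earlier results of these data known, so these counts are a description.

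Closest to the threshold was Gadd45b, a stress-induced protein linked to demethylation through DNA repair. It was at 3.66, 2.38, 3.79 and 3.31 in siXist clones, at 2.85, 3.52, 4.76 and 4.42 in siCont clones and at 1.73, 1.84, 0.53 and 0.48 in IVF embryos. All 8 clones were above all 4 IVF embryos, as for 1.02% of all features. The difference of all clones from IVF embryos was 2.44 ± 0.48 (limma adjusted p = 0.0506), a 5.42-fold higher level, with 2.74 ± 0.55 in siCont clones (adjusted p = 0.0790) and 2.14 ± 0.55 in siXist clones (adjusted p = 0.140).

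Hells (also called Lsh), a chromatin remodeller needed for normal methylation of repeats, was at 3.71, 3.09, 2.63 and 2.88 in siXist clones, at 3.34, 3.87, 3.62 and 3.30 in siCont clones and at 3.76, 4.64, 4.26 and 4.65 in IVF embryos. All siXist clones were below all IVF embryos, where 13.1% of all features had separate ranges, and siCont clone 2 was above IVF embryo 1. The difference from IVF embryos was -1.25 ± 0.32 in siXist clones (limma adjusted p = 0.134) and -1.02 ± 0.27 in all clones (adjusted p = 0.143). Mbd4, a methyl-CG binding protein that excises mismatched thymine, was at -1.20 to 0.10 in siXist clones, at -2.46 to -0.25 in siCont clones and at -2.98 to -1.75 in IVF embryos. Its siXist minus IVF difference was 1.86 ± 0.53 (adjusted p = 0.173).

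Genes of methyl group supply were also followed. Mat2b, a regulatory subunit of the enzyme that makes S-adenosylmethionine, was lower in siXist than in siCont clones by 1.27 ± 0.45 without passing (fitted difference -1.27, limma adjusted p = 0.308). Shmt2, the mitochondrial enzyme that takes one-carbon units from serine, was at -1.68 to 0.20 in siXist clones, at -3.68 to -0.56 in siCont clones and at -0.15 to 0.18 in IVF embryos, with a siCont minus IVF difference of -1.995 ± 0.65 (adjusted p = 0.239). Arid4a, a chromatin protein that takes part in imprinting, was at 2.21, 0.12, -0.0049 and 0.57 in siXist clones and at 1.94, 2.63, 2.32 and 1.52 in siCont clones, which overlapped through siXist clone 1 (difference -1.38 ± 0.52, adjusted p = 0.314).

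**Figure D4:**
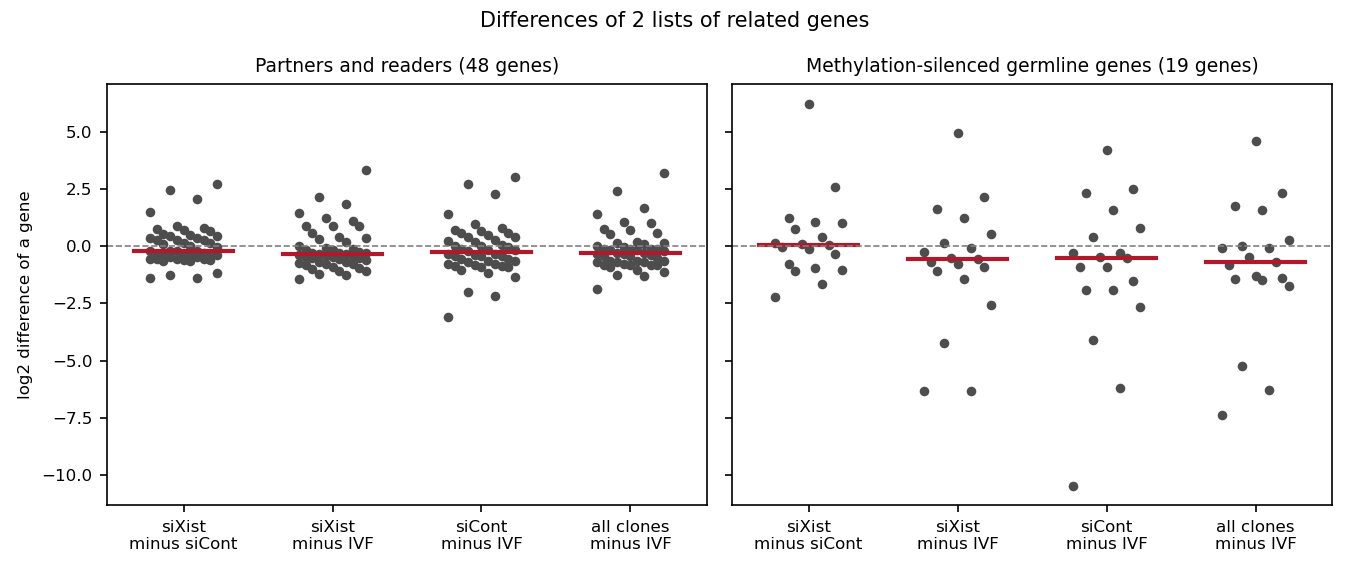
Fitted log2 differences of the 48 partners and readers and the 19 germline genes in 4 comparisons (siXist minus siCont, siXist minus IVF, siCont minus IVF, all clones minus IVF). Each point is a gene and each red line the list's median. The medians of the partners lie between -0.33 and -0.19, and those of the germline genes between -0.67 and 0.04.

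Germline genes that are silenced by promoter methylation in somatic cells were followed as a further list of 24, of which 21 had a probe and 19 passed the filter. Between siXist and siCont clones 10 were higher and 9 lower (median 0.04, all features -0.21). Against IVF embryos 6 were higher and 13 lower in siXist clones (median -0.56, all features -0.23), in siCont clones (median -0.52, all features -0.04) and in all clones (median -0.67, all features -0.12). Over all features 39.8% were higher in siXist than in siCont clones, and 38.3%, 48.1% and 42.6% were higher in siXist clones, siCont clones and all clones than in IVF embryos. By limma 0 of 19 were called in any comparison. At an unadjusted p under 0.05 there were 2 between siXist and siCont clones (13.9% of all features), 6 between siXist clones and IVF embryos (13.9%), 6 between siCont clones and IVF embryos (13.6%) and 9 between all clones and IVF embryos (13.4%). Of these 9, 3 were higher in clones and 6 lower. The higher ones were Hormad1 (2.33 ± 0.62), Dazl (1.77 ± 0.58) and Tdrd1 (4.60 ± 1.76), with limma adjusted p of 0.141, 0.222 and 0.297. Asz1 and Tdrd1 passed the filter on dim signals only through the embryos where they are high. The list was chosen with earlier results of these data known, so these counts are a description. Mael, a protein of the piRNA pathway, was at -2.87, -1.60, 4.73 and 1.37 in siXist clones, at -8.32, -6.66, -0.16 and -8.19 in siCont clones and at 5.59, 3.57, 5.12 and 4.29 in IVF embryos. In siCont clones 1 of 4 arrays was above background. Every siCont clone was below every IVF embryo, where 10.3% of all features had separate ranges. The measured difference of Mael was -10.47 ± 2.00 between siCont clones and IVF embryos (limma adjusted p = 0.0651). Between siXist and siCont clones it was 6.24 ± 2.00 (adjusted p = 0.297), and neither passed. With dim arrays at their lowest signal above background, the siCont mean was at least 612-fold below the IVF mean. It was at least 32.5-fold below the siXist mean. Both values concern the class means alone and depend on the floor. Single embryos lay closer, with siCont clone 3 at -0.16 and IVF embryo 2 at 3.57. The clone classes overlapped through siCont clone 3, and siXist clone 3 lay inside the IVF range.

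Asz1, also of the piRNA pathway, was at -8.58, -7.47 and -2.34 in siXist clones 1 to 3, at -8.29, -4.52, -7.30 and -3.87 in siCont clones and at 1.01, -0.49, 0.95 and -0.63 in IVF embryos. All 7 clones with a value were below all IVF embryos, as clones were for 2.33% of all features. The measured difference of all clones from IVF embryos was -6.27 ± 1.27 (limma adjusted p = 0.0695), where 3 clone arrays were above background. With dim arrays at their lowest signal above background, the clone mean was at least 38.0-fold lower, a value that concerns the class means alone and depends on the floor. Asz1 passed the filter on dim signals only through the IVF embryos, where it is high, so its separate ranges are a description and no support for a difference. Stk31, a germ cell kinase-like protein, was at -1.66, -1.13, -1.60 and -0.27 in siXist clones, at 0.64, -0.50, 0.52 and 1.28 in siCont clones and at 1.41, 2.13, 1.48 and 0.55 in IVF embryos. The siXist clones were below every IVF embryo (difference -2.56 ± 0.51, limma adjusted p = 0.0641), where 13.1% of all features had separate ranges. They overlapped the siCont clones (difference -1.65 ± 0.51, adjusted p = 0.297).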

How the data were processed

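RNA of 12 single morulae was measured on 1-colour Agilent arrays, 4 per class. Per the file headers, the deposited intensity values come from Agilent Feature Extraction 10.5.1.1 on a grid built on mm9, and the processed signal is background-subtracted within an array and not normalised between arrays. The authors' deposited value table is in log2. Its columns follow the scanner values after centring by probe (correlation 0.984 to 0.994), and what its constant per array rests on is unknown. Its column medians were 0.01, 0.54, -0.18 and -0.22 in siXist clones 1 to 4, -0.05, -0.72, -1.62 and -0.12 in siCont clones and 0.56, -0.0069, 0.75 and 0.32 in IVF embryos.

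Levels were computed as log2 processed signal minus the array's 75th percentile, without spots marked as outliers, and 0 spots were saturated. The filter kept 24840 probes that were well above background on 3 or 4 arrays of some class, and a gene was represented by its kept probe with the highest mean. Accessions were matched to RefSeq (GRCm38.p6), which named 65.3% of probes. Male IVF, female IVF, siCont and siXist each had a mean in limma 3.58.1 (R 4.3.3; 8 residual degrees of freedom, two-sided, Benjamini-Hochberg over 19038 features), and contrasts with IVF weight the sexes equally. Errors of differences are SE and intervals are 95%. A bound raises each dim value to the array's lowest signal above background. It applies to the distance between class means, and p-values belong to the fit of the measured levels. Normexp (offset 50) used the median spot signal. The fit was tested on simulated data. Figures used matplotlib 3.10.9 under Python 3.11.15.

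The members and lists were chosen with earlier results of these data known. All members were named, and from the lists the 3 partners and 2 germline genes with the smallest p in each comparison with clones, plus any called. One result that this rule names is not reported here, and counts over the lists include it. Replicate numbers did not pair embryos (correlations of deviations -0.153 to 0.064 between classes). The labels call the embryos biological replicates, and p-values measure the spread between them.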

Additional observations from a re-analysis of the deposited data

Results flagged for a closer look

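In 2 of 40 pairs of a probe and a class, 1 embryo stood far from the other 3, and chance would give 2 of 40 (1 in 20). Dnmt1 was at 0.30 in siCont clone 4, against 1.31 to 1.51 in the other siCont clones. Zfp57 was at -3.20 in IVF embryo 2, a female, against -5.12 to -4.86 in the other IVF embryos.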

How the results depend on the processing

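None of the 9 genes was called in any of the 5 comparisons under any of the alternatives run for it, from 28 in all, 12 of which leave out an array. The planned ones were other background correction and scaling, the authors' deposited table, other filters, a floor, other rules for several probes, only the groups compared, sexes not separated, male IVF embryos only, array weights, robust eBayes with a trend and the replicate number as a block. Keeping outlier spots and centring the authors' table were chosen after seeing the data. Under the replicate block 0 members were called in the 4 comparisons between classes, while the calls over all features were 13 for siXist and 13 for siCont clones against IVF embryos, 71 for all clones and 1 for siXist against siCont clones. Over all features the calls were 2 between siXist and siCont clones, 110 and 79 for siXist and siCont clones against IVF embryos, 173 for all clones and 3 between the sexes. The other settings gave 0 to 19 calls between siXist and siCont clones, 13 to 248 and 13 to 110 for siXist and siCont clones against IVF embryos, 57 to 345 for all clones and 0 to 23 between the sexes, and leaving out an array gave 8 to 56, 34 to 127, 33 to 106, 56 to 177 and 3 to 7. Of 950 member differences in the 4 comparisons with clones, 912 kept their direction and 38 reversed. The 950 leave out the sexes and the setting with each kept probe tested on its own. In that setting other probes of Dnmt3a, Tet2 and Tet3 were opposite in sign to the brightest probe in some comparisons.

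Between siXist and siCont clones, the authors' table (median of all features 0.93) gave 1.04 for Dnmt1, 0.38 for Dnmt3b, 0.19 for Dnmt3l, 0.78 for Dppa3 and 0.36 for Zfp57, of which Dnmt1 alone was reversed after centring (0.19). Dnmt1 was 0.046 after normexp, 0.062 after quantile scaling and 0.048 with array weights, Dnmt3a was -0.14 with the mean of its probes, and Tet3 was -0.22 with array weights. Between siCont clones and IVF embryos, the authors' table (median -1.13) gave -0.50 for Dnmt1, -0.50 for Dnmt3a and -0.67 for Dnmt3l, and Tet2 was 0.24 against male embryos only. Between all clones and IVF embryos, Dnmt3l was 0.18 after normexp, 0.15 after quantile scaling and 0.032 in the centred table. With 1 array left out, the reversed values ran as follows. Between siXist and siCont clones Dnmt1 ran from -0.37 to 0.14, Tet3 from -0.68 to 2.34 and Uhrf1 from -0.085 to 0.77, and between siXist clones and IVF embryos Tet3 ran from -1.13 to 0.56. Between siCont clones and IVF embryos Dnmt3a ran from -0.056 to 1.24, Dnmt3b from -0.53 to 0.13, Tet2 from -0.97 to 0.89, Tet3 from -2.75 to 0.27 and Dppa3 from -0.32 to 0.086. Between all clones and IVF embryos Dnmt3l ran from -0.32 to 0.24 and Tet2 from -0.36 to 1.49. The cause was not tested.

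Dnmt3b could not be fitted without IVF replicate 3. For all clones against IVF embryos, only the groups compared is the same fit and was not run, and for the sexes the block and unseparated sexes were not run. The setting with male IVF embryos only applies to the 3 comparisons of clones with IVF embryos and was not run for the others. Signal over background limits Zfp57, the first Tet3 probe in siCont clone 3 and the Tet3 probe that did not pass the filter.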
